A study of Homo sapiens with 6 samples.

Results

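Described here are 9 genes that encode enzymes of heme synthesis and breakdown, chosen by their symbols from the 16798 genes of the deposited gene table. ALAS1, ALAD, UROD, CPOX, PPOX and FECH make up the 6 synthesis genes, and HMOX2, BLVRA and BLVRB the 3 breakdown genes, and all 9 members were found and tested. They were measured by RNA-Seq in COV434 cells, a human immortalized line labelled as granulosa cells (GCs). The 3 control samples were labelled wild type with no treatment of their own. The 3 treated samples, labelled CTX-induced, received 15 µM 4HC (4-hydroxycyclophosphamide, the active metabolite of cyclophosphamide, CTX) for 24 h. All samples came from this 1 cell line, and the treated ones had 1 dose and 1 time. No time was labelled for the controls, and their vehicle was not given in the sources used here.

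Heme is an iron-containing ring that carries oxygen and electrons in proteins such as cytochromes and catalase. Its synthesis starts in the mitochondrion with ALAS1, passes through the cytosol with steps that include ALAD, UROS and UROD, and ends in the mitochondrion with CPOX, PPOX and FECH, which inserts the iron. Breakdown starts with the heme oxygenases HMOX1 and HMOX2, which open the ring and release iron, carbon monoxide and biliverdin. The biliverdin reductase BLVRA then turns the alpha isomer of biliverdin that they release into bilirubin. Biliverdin reductase BLVRB reduces the beta isomer. In GCs heme also serves the cytochromes that make steroids.

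Expected counts (the estimated number of reads of a gene, which need not be whole) summed to between 16133786 and 16702316 per sample. Levels in a sample are given as CPM (counts relative to the library total after TMM scaling), as mean ± SD with n = 3 per group. Differences were tested with edgeR's quasi-likelihood test over 12368 genes, and adjusted p is the Benjamini-Hochberg value over all of them. At an adjusted p under 0.05, 19.2% of all genes were higher and 17.1% lower in 4HC, so 52.9% of the calls were higher. This share was 63.4% in a limma fit on the deposited FPKM values. The median log2 fold change of all genes was 0.005. Of 10 granulosa markers 9 were in the table, 3 had enough counts for a test and 0 of these passed it, and their summed level was 17.1 to 23.8 CPM in control and 19.8 to 21.1 CPM in 4HC. Counts per sample were 0 to 3 for FOXL2, 0 to 1 for FSHR and 0 to 1 for CYP19A1, defining markers of GCs that were therefore near 0 in these libraries, while AMH had 63 to 106 and HSD17B1 199 to 251. Of 12 erythroid markers, of the cells known for the highest heme synthesis, 8 were in the table, only HBG2 had enough counts for a test and it did not pass. The summed erythroid level was 3.53 to 3.73 CPM in control and 2.98 to 3.26 CPM in 4HC, with GATA1 and HBA1 at 0 to 1 counts and the erythroid ALAS2 at 0 to 2.

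Both biliverdin reductases rose after 4HC, and the 6 synthesis genes and HMOX2 did not pass the test. BLVRB rose 1.61-fold and BLVRA 1.21-fold, so 2 of the 9 members (22.2%) were higher in 4HC, near the 19.2% of all genes, and 0 were lower by edgeR, against 17.1%. Of all genes, 36.4% were called in either direction. No member was lower at an unadjusted p under 0.05 either, and DESeq2 also called 0 lower. The median log2 fold change of the 9 members was 0.083, with a range of -0.042 to 0.688. In 5 members every 4HC sample was above every control sample in CPM, against 23.4% of all genes. In 0 members every 4HC sample was below, against 21.9% of all genes. ALAS1 was 1 of the 5, and its groups overlapped in expected counts before scaling. An unadjusted p under 0.05 was reached by 5 members, against 44.5% of all genes. None of the members had a fold change of at least 2, a threshold that, with an unadjusted p under 0.05, 1.15% of all genes passed. With library size as the only scaling, 5 members were higher at an adjusted p under 0.05, the added ones being ALAS1, UROD and FECH.

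**Figure D1:**
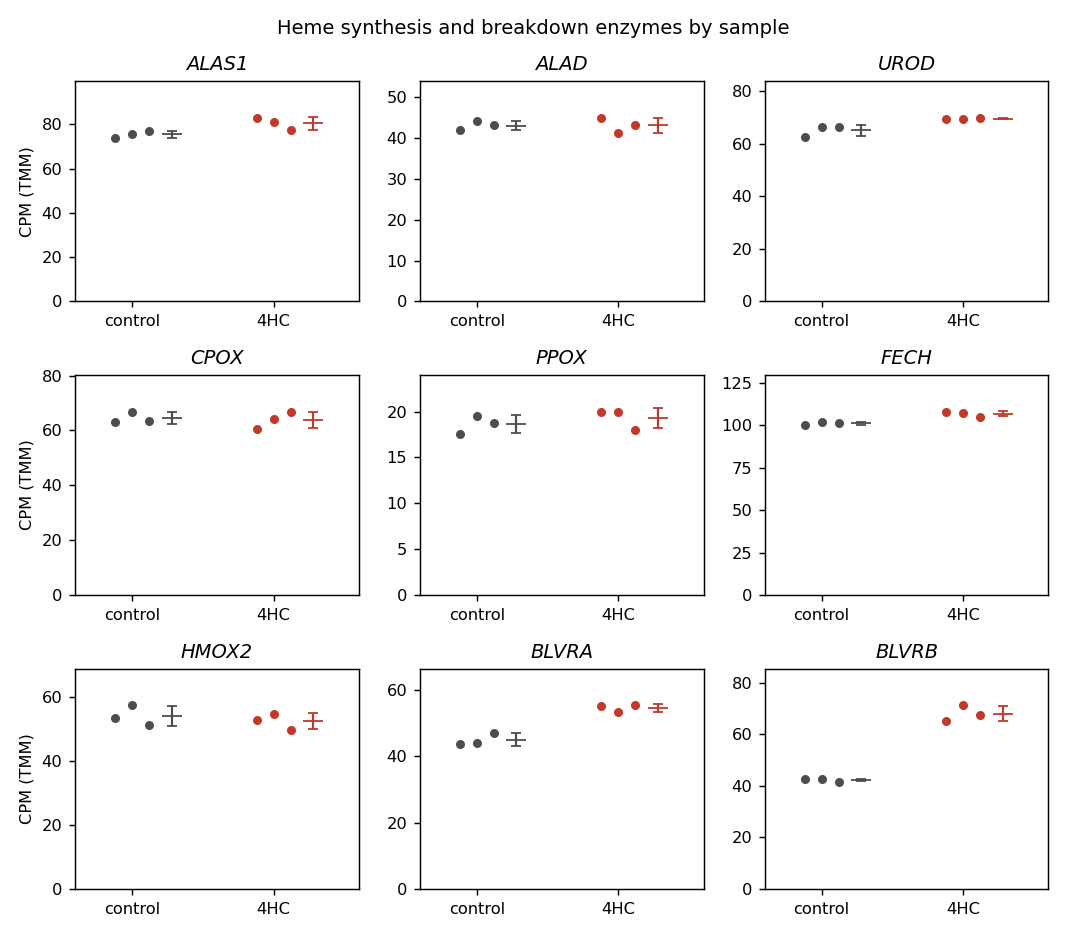
CPM after TMM scaling (vertical axis, from 0) of each of the 9 enzymes in the 3 control (grey) and 3 4HC (red) samples, with the mean and SD beside the points. BLVRB lies at 41.7 to 42.6 in control and 65.4 to 71.3 in 4HC, and BLVRA at 43.8 to 47.1 and 53.2 to 55.3.

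BLVRB (gene 645, chr19:40446561-40474720, GRCh38.p13) encodes biliverdin reductase B, an NADPH-dependent enzyme that reduces the beta isomer of biliverdin and also flavins. Its expected count was 691 in each of the 3 control samples and 1083, 1157 and 1105 in the 4HC samples. The equal control counts became 42.6, 42.5 and 41.7 CPM after scaling, against 65.4, 71.3 and 67.6 CPM in 4HC. The groups were far apart, with 42.3 ± 0.502 CPM in control and 68.1 ± 3.02 in 4HC. The small control SD reflects the 3 equal counts and is not a guide to the usual spread between replicates. The log2 fold change was 0.69 (SE 0.051, 95% CI 0.586 to 0.79, adjusted p = 2.12e-16, edgeR), above that of 97.4% of the genes tested. It was between 0.652 and 0.712 when any 1 sample was left out. Of all genes tested, TRIAP1, IQGAP3 and MYBL1 had the profiles most like that of BLVRB over the 6 samples. Likeness was the root mean square difference of mean-centred log2 CPM, which was 0.0321 for TRIAP1, 0.0336 for IQGAP3 and 0.0341 for MYBL1, with a median of 0.357 over all genes. TRIAP1 had 57.6 CPM in control and 92.9 in 4HC, IQGAP3 35.0 and 55.1, and MYBL1 17.8 and 29.2.

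BLVRA (gene 644, chr7:43758122-43810632) encodes biliverdin reductase A, which makes bilirubin from the alpha isomer of biliverdin that the heme oxygenases release. It had 710, 717 and 780 counts in control and 912, 863 and 903 in 4HC. In CPM these were 43.8, 44.1 and 47.1 in control and 55.0, 53.2 and 55.3 in 4HC. Each 4HC sample was above each control sample, at 45.0 ± 1.81 CPM in control and 54.5 ± 1.13 in 4HC. The log2 fold change of BLVRA was 0.28 (SE 0.052, 95% CI 0.173 to 0.381, adjusted p = 2.14e-05, edgeR), above that of 86.9% of genes. It was between 0.255 and 0.31 without any 1 sample, with adjusted p of 6.13e-05 to 0.000534.

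The promoters of both reductases are shown because these are the members that rose, with that of ALAS1, the first and rate-limiting enzyme of synthesis, which did not pass the test. Each is the 250 bases before the start site of RefSeq (GRCh38.p14), printed 5′ to 3′ in the direction of the gene. For BLVRB and BLVRA this start site lies inside the gene span given above, which the deposited table begins further upstream, so the window is not the sequence before that span. Capitals mark matches on either strand to a GC box (GGGCGG) or a CCAAT box (CCAAT), which do not overlap each other here. The first lies at chr19:40465746-40465995 on the minus strand, the second at chr7:43758430-43758679 and the third at chr3:52197833-52198082, both on the plus strand.
BLVRB: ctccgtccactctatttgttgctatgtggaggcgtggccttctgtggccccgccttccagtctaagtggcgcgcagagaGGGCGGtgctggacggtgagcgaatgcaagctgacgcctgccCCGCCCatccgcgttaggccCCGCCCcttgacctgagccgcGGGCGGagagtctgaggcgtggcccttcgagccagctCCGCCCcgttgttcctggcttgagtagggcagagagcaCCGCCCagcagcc
BLVRA: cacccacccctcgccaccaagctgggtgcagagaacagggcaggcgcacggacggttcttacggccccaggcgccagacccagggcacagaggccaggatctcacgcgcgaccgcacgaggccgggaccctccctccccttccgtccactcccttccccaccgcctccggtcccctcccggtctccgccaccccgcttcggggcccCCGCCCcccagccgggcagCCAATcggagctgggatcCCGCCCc
ALAS1: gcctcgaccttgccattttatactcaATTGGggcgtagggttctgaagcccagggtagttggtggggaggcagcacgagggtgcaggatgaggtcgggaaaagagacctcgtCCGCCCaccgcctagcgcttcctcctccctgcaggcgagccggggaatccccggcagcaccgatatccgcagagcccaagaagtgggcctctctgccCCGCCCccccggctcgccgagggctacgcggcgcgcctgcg
The BLVRB promoter held 6 GC boxes and no CCAAT box, whereas BLVRA and ALAS1 held 2 GC boxes and 1 CCAAT box each. Their GC content was 67.2% for BLVRB, 74.4% for BLVRA and 67.2% for ALAS1. Over all 12 RefSeq promoters of the 9 members, a GC box was found in 10 promoters of 9 members, against 42.6% of 35116 promoters of the same length. A CCAAT box was found in 5 of the 12 promoters, in 5 members, against 32.0% of all promoters. The core of the antioxidant response element (TGACNNNGC), a motif bound by NRF2, was found in 1 of the 12, that of FECH, and in 10.9% of all promoters. An E-box (CACGTG) was found in 1 of the 12, a promoter of HMOX2, and in 6.34% of all promoters. The NRF1 motif (GCGC, then any 1 base, then TGCGC) was found in 0 of the 12 and in 5.07% of all promoters. These are matches of letters in a short window and not measured binding.

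HMOX2 (gene 3163) encodes the constitutive heme oxygenase, and did not pass the test. It had 53.5, 57.4 and 51.1 CPM in control and 52.9, 54.6 and 49.8 in 4HC, and the groups overlapped. The log2 fold change was -0.04 (95% CI -0.148 to 0.063, adjusted p = 0.565, edgeR). The table placed HMOX2 on an alternate scaffold, and 8 of its 18 transcripts were named as second copies with 38.5% of the control counts. HMOX2 also shares 228 of its 3793 exon bases with NMRAL1 on the opposite strand, and the strand setting of the counting was not given in the sources used here. HMOX1, the inducible heme oxygenase, is given only beside it, with 21.4, 26.2 and 24.0 CPM in control and 34.2, 36.2 and 32.7 in 4HC (log2 fold change 0.53, SE 0.066, adjusted p = 4.31e-09, edgeR).

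ALAS1 (gene 211, chr3:52198083-52216136) encodes 5-aminolevulinate synthase, which condenses glycine with succinyl-CoA. Its counts were 1198, 1229 and 1278 in control and 1376, 1317 and 1264 in 4HC. In CPM they were 73.8, 75.6 and 77.1 against 83.0, 81.2 and 77.4, so the groups did not overlap, by a narrow margin. The log2 fold change of 0.09 (SE 0.045, 95% CI 0.003 to 0.183) had an unadjusted p of 0.0437 and an adjusted p of 0.101 in edgeR. Without 4HC replicate 3 it was 0.121 with an adjusted p of 0.0473, and over the removal of each sample it was 0.065 to 0.121.

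UROD (gene 7389, chr1:45012212-45015575), which removes carboxyl groups from uroporphyrinogen, had 62.6, 66.1 and 66.3 CPM in control and 69.3, 69.3 and 69.8 in 4HC. Its groups did not overlap, and the log2 fold change was 0.10 (95% CI 0.003 to 0.189, adjusted p = 0.102, edgeR). FECH (gene 2235, chr18:57544377-57586708), the ferrochelatase that places ferrous iron in protoporphyrin, had 1624, 1651 and 1668 counts in control and 1789, 1742 and 1713 in 4HC. These gave 101 ± 0.771 and 107 ± 1.67 CPM, again without overlap. Its log2 fold change was 0.08 (95% CI 0.002 to 0.165, adjusted p = 0.105, edgeR). FECH has a processed pseudogene, FECHP1, with which reads could be shared. ALAS1, UROD and FECH thus had intervals just above 0 and missed the adjusted threshold.

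ALAD (gene 210, chr9:113384380-113401301), which joins 2 molecules of aminolevulinate into porphobilinogen, had 42.0, 44.1 and 43.1 CPM in control and 45.0, 41.3 and 43.3 in 4HC. CPOX (gene 1371, chr3:98569837-98593684), the coproporphyrinogen oxidase, had 63.0, 66.9 and 63.3 CPM in control and 60.7, 64.1 and 66.7 in 4HC. PPOX (gene 5498, chr1:161165824-161178277), the protoporphyrinogen oxidase, had 17.6, 19.5 and 18.8 CPM in control and 20.0, 19.9 and 18.0 in 4HC. The groups of all 3 overlapped. The log2 fold changes had 95% CIs of -0.105 to 0.113 for ALAD, -0.11 to 0.084 for CPOX and -0.102 to 0.199 for PPOX. These intervals bound only the difference between these samples, in either direction. The adjusted p-values were 0.963 for ALAD, 0.864 for CPOX and 0.647 for PPOX (edgeR). PPOX shares 1118 of its 4607 exon bases with B4GALT3 on the opposite strand, and CPOX 163 of 3232 with AC021660.3 on the same strand, so reads there are uncertain.

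Among other enzymes of the pathway, UROS, which closes the ring and was named after its value was seen, had a log2 fold change of -0.01 (adjusted p = 0.9, edgeR), positive with library size as the only scaling. ALAS2 had too few counts for a test.

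**Figure D2:**
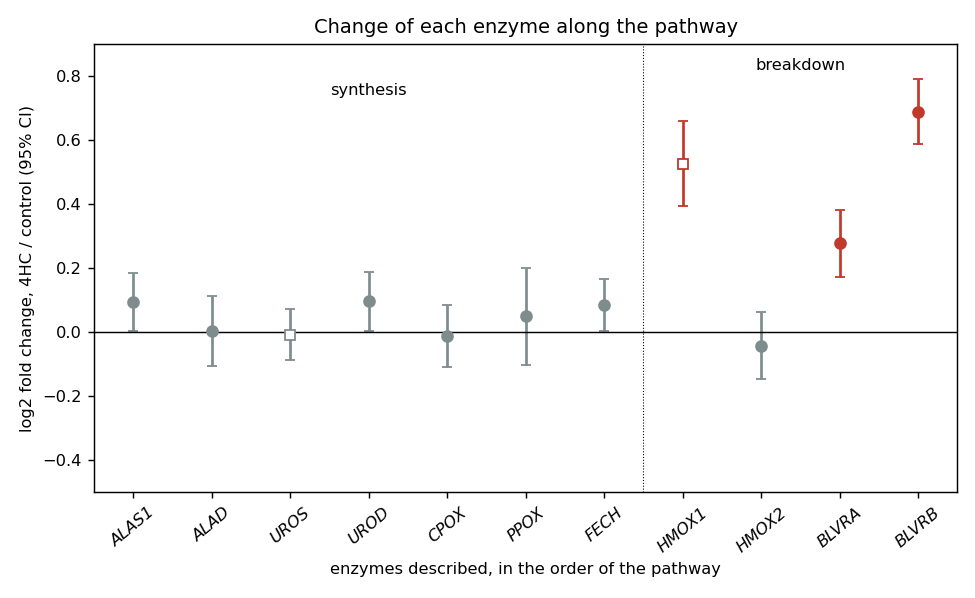
Log2 fold change of 4HC over control (vertical axis, bars are 95% CIs) for the enzymes described, in pathway order, with members as filled circles and HMOX1 and UROS as open squares. Red marks an adjusted p under 0.05: BLVRA, BLVRB and HMOX1 were higher, and the intervals of the others lay near or across 0.

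Per transcript length, the breakdown gene BLVRB was the most abundant member and PPOX the least. In control the deposited TPM (a level corrected for transcript length) was 130 ± 0.914 for BLVRB, 112 ± 3.72 for UROD, 89.2 ± 4.12 for BLVRA, 65.0 ± 3.67 for HMOX2 and 59.1 ± 1.5 for ALAS1. It was 42.5 ± 0.202 for FECH, 41.3 ± 1.1 for CPOX, 23.5 ± 0.495 for ALAD and 19.4 ± 0.982 for PPOX, a 6.7-fold range from highest to lowest. Of the neighbours in this order, FECH and CPOX overlapped between samples, and the other neighbours did not. In 4HC the TPM was 207 ± 7.95 for BLVRB, 119 ± 1.03 for UROD and 107 ± 2.65 for BLVRA, and the means of ALAS1 (62.7) and HMOX2 (62.1) were in the reverse order, with samples that overlapped.

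**Figure D3:**
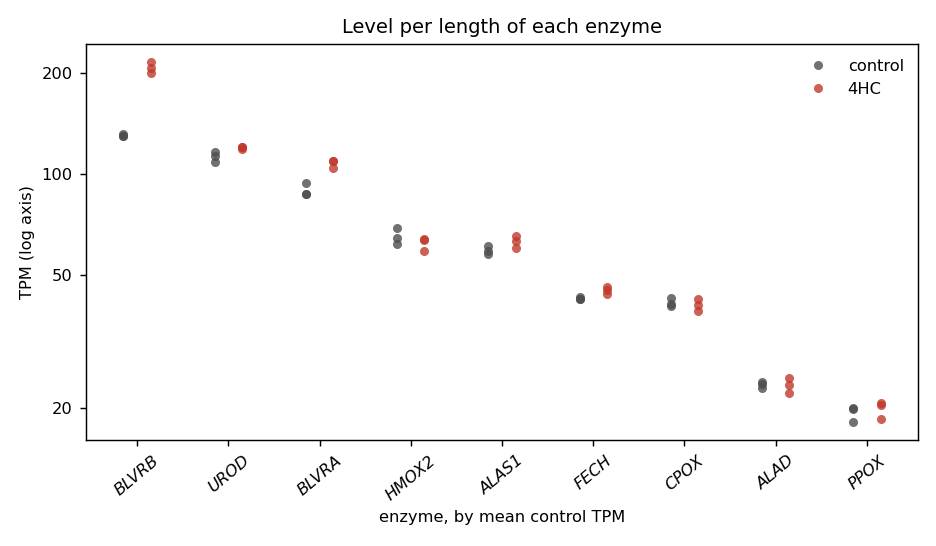
Deposited TPM (vertical log axis) of each enzyme in the 3 control (grey) and 3 4HC (red) samples, ordered by mean control TPM. BLVRB lies highest in both groups, at 130 in control and 207 in 4HC on average, and PPOX lowest.

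The level ratio within the breakdown enzymes was computed after the values had been seen. In TPM, BLVRB to BLVRA was 1.5, 1.49 and 1.37 in control and 1.84, 2.07 and 1.9 in 4HC. The mean was 1.45 ± 0.073 in control and 1.93 ± 0.121 in 4HC, a difference of 0.41 on the log2 scale without overlap. For HMOX1 to HMOX2 the ratio was 0.412, 0.465 and 0.484 in control and 0.665, 0.692 and 0.683 in 4HC, a log2 difference of 0.59. Both had a two-sided exact permutation p of 0.1 (adjusted p of 0.1 over the 2 ratios), the smallest value that 3 samples against 3 can give.

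The transcripts of the members showed where the counts lay, as estimates of a shared assignment. Of 67 member transcripts in the table, 39 had a mean expected count of at least 10 in a group, 37 of these were tested, and 1 was called, the single transcript of BLVRB (NM_000713, log2 fold change 0.69, SE 0.043, adjusted p = 0.00472, edgeR). Of all transcripts tested, 1.29% were called. The counts of NM_000713 are those of the BLVRB gene itself, so its call is not separate evidence. That call was lost without control replicate 1 (adjusted p of 0.05) and without control replicate 3 (adjusted p of 0.051). The dispersion between samples was much larger for transcripts than for genes, with a biological coefficient of variation of 0.724 against 0.0277.

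Most BLVRA counts, 95.5% in control, lay on the transcript NM_000712, with 674.83, 687.55 and 745.46 in control and 840.82, 814.81 and 849.38 in 4HC. Its log2 fold change was 0.25 (SE 0.046, adjusted p = 0.0824, edgeR). The BLVRA transcript NM_001253823 had 26.1, 24.37 and 34.54 counts in control and 71.18, 35.9 and 53.62 in 4HC, with an adjusted p of 0.518 (edgeR). Both lay higher in all 4HC samples, without passing the test. The transcripts of BLVRA and ALAS1 given by sample are those of these genes whose groups did not overlap. How many of all transcripts tested separate in this way was not counted, so the separation is only a description.

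ALAS1 was mostly NM_199166 (78.7% of control counts), with 942.51, 982.45 and 990.38 in control and 1087.3, 1068.11 and 1008.68 in 4HC (adjusted p = 0.341, edgeR). The ALAS1 transcript NM_000688 had 169.75, 153.16 and 171.23 counts in control and 145.77, 91.82 and 100.98 in 4HC, all below control, and its share of ALAS1 was 13.3% ± 0.855 in control and 8.52% ± 1.87 in 4HC. NM_001304443 of ALAS1 was above control in every 4HC sample, with a share of 3.62% ± 1.39 and 6.42% ± 0.811. The adjusted p was 0.439 for NM_000688 and 0.442 for NM_001304443 (edgeR), so neither difference passed. The leading transcript held 88.7% of control counts in ALAD (NM_000031), 97.2% in CPOX (NM_000097), 66.6% in FECH (XM_011525882) and 23.9% in PPOX (NM_001122764). In HMOX2 it was NM_002134 with 32.9%, and the second copy of that same transcript held a further 30.8%. UROD had 1 transcript, NM_000374.

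Genes around the pathway were taken from 3 further lists. Of the 16 heme transport and iron supply genes 14 were tested, 5 were higher (35.7%) and 3 lower (21.4%), against 19.2% and 17.1% of all genes, and the median of their log2 fold changes was 0.08. SLC48A1, which moves heme out of endosomes and lysosomes, had 27.1 ± 0.591 CPM in control and 34.8 ± 1.05 in 4HC (log2 fold change 0.36, adjusted p = 3.05e-06, edgeR). ABCB6, a porphyrin transporter, had 48.6 ± 1.59 and 61.7 ± 1.96 CPM (0.34, adjusted p = 1.84e-07, edgeR). TMEM14C, which carries protoporphyrinogen in mitochondria, had 55.7 ± 4.32 and 70.2 ± 2.7 CPM (0.33, adjusted p = 4.8e-07, edgeR). Named after their values were seen, SLC25A39 (0.12) and ABCB10 (0.12) were the other higher genes, and SLC25A38 (-0.17), a mitochondrial glycine carrier, PGRMC1 (-0.15) and PGRMC2 (-0.14), heme-binding membrane proteins, were the lower ones.

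Of 15 regulators, all tested, 2 were higher (13.3%) and 4 lower (26.7%), against 19.2% and 17.1% of all genes, with a median of 0.005. The circadian repressor NR1D2 had 29.1 ± 1.55 CPM in control and 22.3 ± 0.127 in 4HC (log2 fold change -0.38, adjusted p = 4.49e-06, edgeR). KEAP1, the repressor of NRF2, had 82.1 ± 2.44 and 98.4 ± 5.17 CPM (0.26, adjusted p = 4.03e-06, edgeR). MAFF, a small MAF partner of NRF2 and BACH1, had 6.53 ± 0.22 and 8.45 ± 0.793 CPM (0.37, adjusted p = 0.0106, edgeR). Without 4HC replicate 2 the adjusted p of MAFF was 0.0595, which left 1 regulator higher, and with DESeq2 it was 0.0617. The other lower regulators, named after their values were seen, were NRF1 (-0.26), IREB2 (-0.18), an iron-responsive RNA-binding protein, and the mitochondrial protease LONP1 (-0.10).

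Of the 17 heme users 16 were tested, 1 was higher (6.25%) and 6 lower (37.5%), where all genes gave 19.2% and 17.1%, with a median of -0.053. The heme-binding HEBP1 had 17.2 ± 0.905 CPM in control and 22.1 ± 1.78 in 4HC (log2 fold change 0.37, adjusted p = 8.83e-05, edgeR). COX10, which turns heme B into heme O on the way to the heme A of cytochrome c oxidase, had 24.0 ± 1.14 and 19.6 ± 0.589 CPM (-0.29, adjusted p = 0.000722, edgeR). CYP51A1, a cytochrome of cholesterol synthesis, had 169 ± 4.6 and 139 ± 3.67 CPM (-0.29, adjusted p = 1.33e-08, edgeR). Without 4HC replicate 3, 2 heme users were higher. The other lower genes of this list, named after their values were seen, were CYCS (-0.20), POR (-0.16), HCCS (-0.15) and PGRMC1 (-0.15). PGRMC1 stood both in this list and among the transport genes. POR passes electrons to cytochromes and holds no heme itself, so the list is wider than proteins that contain heme.

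**Figure D4:**
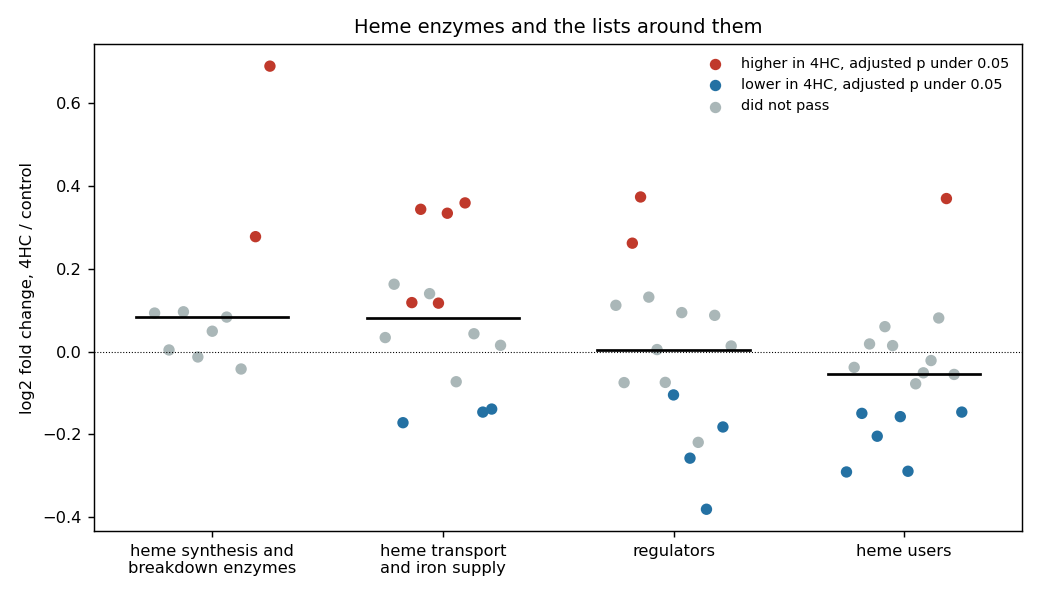
Log2 fold change of 4HC over control (vertical axis) of each tested gene in the members and the 3 lists, with the list median as a bar. Red and blue points passed an adjusted p under 0.05 in edgeR: the members hold 2 higher and 0 lower, the transport list 5 and 3, the regulators 2 and 4, and the heme users 1 and 6.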

How the data were processed

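Total RNA of 6 COV434 samples was sequenced, and groups were taken from the sample labels. The authors filtered reads with SOAPnuke. The submitters' processing notes name HISAT2, Bowtie2, RSEM 1.3.1, DESeq2 1.4.5 and GRCh38.p13. The authors deposited expected counts for 16798 genes and 79213 transcripts (85.5% of gene counts whole), and also deposited TPM and FPKM, which are scaled to length and library size. Deposited columns of the authors' own DESeq2 comparison (log2 fold change, p-value, q-value) were not used. A second gene table repeated 27 columns.

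Rounded expected counts were compared between groups in R 4.3.3 by edgeR 4.0.16 (TMM, filterByExpr, quasi-likelihood, condition as the only term), which was tested on simulated data first, and TPM served for levels between genes. The deposits gave 16133786 to 16702316 counts per sample. The labels do not say whether replicates were separate cultures, so p-values and intervals rest only on the spread between these samples, which may be technical. Replicate numbers were not used as pairs.

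Alternatives were DESeq2 1.42.0, its size factors in edgeR, library size only, no filter, at least 10 counts in every sample, a replicate block, limma 3.58.1 on log2 of TPM (pseudocount 1 or 0.1) or FPKM (pseudocount 1), and leaving out each sample. The 2 level ratios were added after seeing the data. Named were all members and up to 3 called genes with the largest change in each list. HMOX1 and the 3 genes most like BLVRB were named too. Of the 39 member transcripts with a mean count of at least 10, only some are described. They are the leading one of each gene, those of ALAS1 and BLVRA whose groups did not overlap, and a second copy in HMOX2. Of the listed genes, 1 is not reported here. Members and lists were chosen with earlier results of these data known. Promoters came from RefSeq (GRCh38.p14) and exon overlaps from GENCODE.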

Additional observations from a re-analysis of the deposited data

How the results depend on the processing

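BLVRB and BLVRA were higher at an adjusted p under 0.05 in every alternative run, with log2 fold changes of 0.671 to 0.709 for BLVRB and 0.261 to 0.298 for BLVRA outside the removal of samples. With library size only, ALAS1 (0.114, adjusted p = 0.0429, edgeR), UROD (0.117, adjusted p = 0.0438) and FECH (0.104, adjusted p = 0.0397) passed, the count of higher members became 5 and of higher regulators 4, CPOX was 0.00759 and UROS 0.013. With limma on FPKM without a filter, UROD was 0.112 (adjusted p = 0.0394), CPOX 0.00571 and UROS 0.0064, and 1090 genes were lower in place of 2118. ALAD was -0.00137 with DESeq2, -0.00129 with its size factors and -0.00587 or -0.00613 with limma on TPM with a pseudocount of 1 or 0.1. DESeq2 gave 1 higher regulator and 2 called member transcripts, the added one NM_000712 of BLVRA (adjusted p = 0.00147). The cause of these moves was not tested.

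Without 1 sample, log2 fold changes were 0.065 to 0.121 for ALAS1, -0.032 to 0.034 for ALAD, 0.067 to 0.11 for UROD, -0.046 to 0.017 for CPOX, 0.00766 (without control replicate 1) to 0.097 (without 4HC replicate 3) for PPOX, 0.07 to 0.096 for FECH, -0.081 to 0.00246 for HMOX2 and -0.037 to 0.00388 for UROS. Members higher numbered 2 to 3, regulators higher 1 to 3, heme users higher 1 to 2 and member transcripts called 0 to 1.

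With 3 samples per group, it could not be decided whether replicate numbers pair the samples. Deviations of same-numbered samples correlated at 0.009, 0.069 and 0.03, and those of differently numbered samples at -0.08 to 0.045. Not every sample correlated best with its own number. With the number as a replicate block, 0 member transcripts were called (NM_000713 of BLVRB at an adjusted p of 0.11, edgeR), 2 members were higher, and 2259 genes were higher and 1954 lower. At this depth PPOX, with the lowest level, had the widest interval of the members.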

Other observations

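The deposited annotation also assigns other genes to the KEGG porphyrin category. Among them, GUSB, the lysosomal beta-glucuronidase that can split bilirubin conjugates, had 33.3 ± 2.03 CPM in control and 44.1 ± 1.92 in 4HC (n = 3, log2 fold change 0.41, SE 0.058, adjusted p = 8.63e-08, edgeR). EARS2, the mitochondrial glutamyl-tRNA synthetase, had 48.4 ± 2.71 and 41.0 ± 1.18 CPM (-0.24, SE 0.055, adjusted p = 0.000372, edgeR). EPRS1, the cytosolic glutamyl-prolyl-tRNA synthetase, had 403 ± 8.29 and 380 ± 16.2 CPM (adjusted p = 0.044, edgeR), and MMAB, an enzyme of cobalamin metabolism, had an adjusted p of 0.418. These genes were named after their values were seen.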
